A study of Sus scrofa domesticus with 4 samples.

Results

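Prolactin (PRL) and the pituitary transcription factor POU1F1 (also called PIT-1) were followed here in the anterior pituitary of pregnant and cyclic pigs. They are 2 of the 2422 genes that could be named on the array, and each was represented by every non-control probe whose RefSeq accession belongs to it. That gave 6 of 43603 probes, 4 for PRL (NM_213926) and 2 for POU1F1 (NM_214163), of which 5 passed the filters for a test. The pregnant group held 4 mature gilts (young female pigs) that had been bred naturally and were killed on days 12 to 13 of pregnancy, with conceptuses found. The cyclic group held 4 gilts killed on days 12 to 13 of the estrous cycle, the day being checked on the ovaries. All 8 gilts were Large White x Polish Landrace animals of about 110 kg. Each of 4 two-colour arrays held RNA of 1 pregnant and 1 cyclic gilt. By the sample labels, pregnant RNA carried the dye Cy3 on arrays 1 and 3 and the dye Cy5 on arrays 2 and 4, and the cyclic RNA of the same array carried the other dye.

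Prolactin is a peptide hormone secreted by the lactotrophs of the anterior pituitary and is best known for its action on the mammary gland. Dopamine from the hypothalamus restrains lactotrophs through the receptor DRD2, while thyrotropin-releasing hormone and estrogen stimulate them. POU1F1 is a POU-domain factor that is needed for lactotrophs, somatotrophs and thyrotrophs to form, and it binds the promoters of PRL, growth hormone (GH1) and thyrotropin beta (TSHB) as well as its own gene.

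Probes for the hormone transcripts PRL, GH1, TSHB, CGA, POMC, FSHB and LHB all passed the signal filter. It asked for a signal well above background on every array in either the pregnant or the cyclic channel. Since 23913 of the 43603 probes met it, passing does not test the tissue label. Between 60.7% and 71.8% of spots were well above background in the pregnant channel, and between 47.5% and 71.6% in the cyclic channel. No spot was saturated. A dim patch on array 4 took in 4554 spots (10.4%), none of them a PRL or POU1F1 spot. With 4 arrays, the precision of the values is limited by their number.

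PRL transcript was lower in pregnant gilts on arrays 1 and 3 and closer to equal on arrays 2 and 4. The brightest PRL probe, A_72_P027831, had normalised log2 levels of 16.51, 17.80, 16.95 and 17.59 in the pregnant gilts of arrays 1 to 4, against 18.26, 17.79, 18.37 and 17.998 in the cyclic gilts of the same arrays. The pregnant gilts of arrays 1 and 3 had the lowest levels of the 8 animals, and the groups overlapped only through array 2, where the pregnant gilt lay just above its cyclic partner. The level was 17.21 ± 0.59 in pregnant and 18.10 ± 0.26 in cyclic gilts (mean ± SD, n = 4 each). In bulk tissue, fewer lactotrophs and less PRL transcript per lactotroph cannot be told apart.

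**Figure D1:**
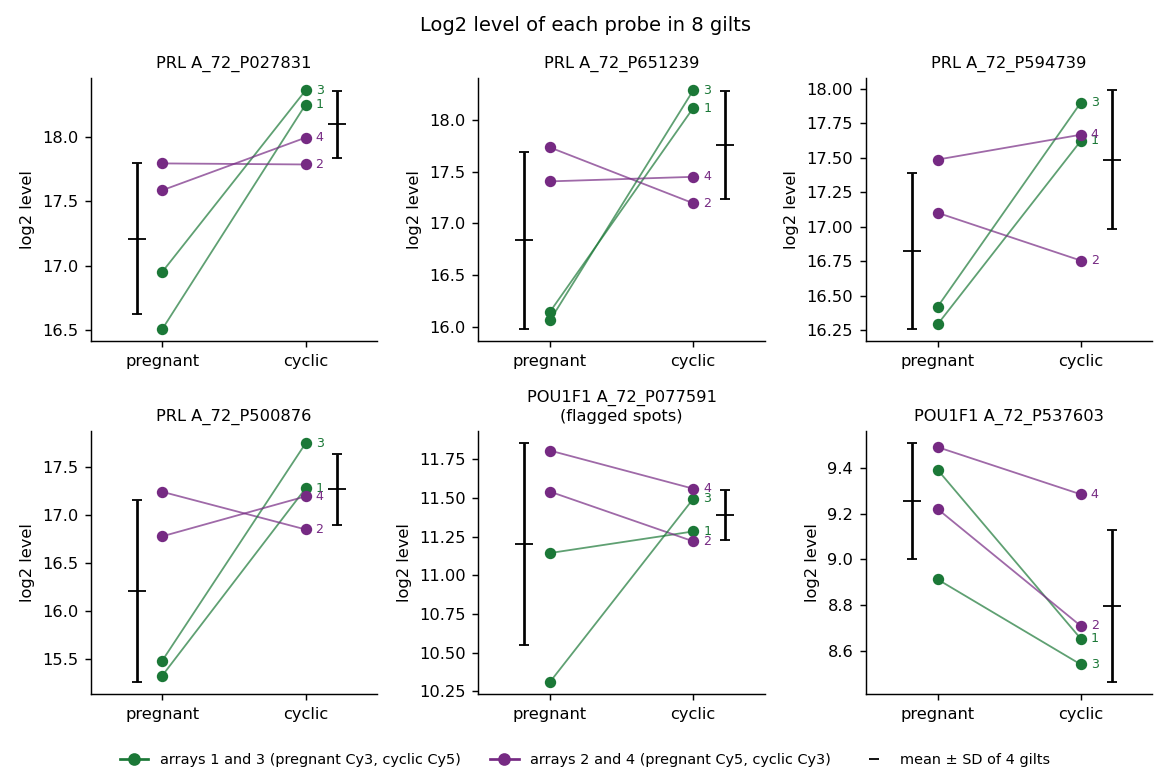
Normalised log2 level (vertical axis) of each PRL and POU1F1 probe in the 4 pregnant and 4 cyclic gilts; lines join the 2 gilts of an array, numbers name the array, and black bars are the mean ± SD. On arrays 1 and 3 (green) the pregnant gilts lie well below their cyclic partners for PRL, while on arrays 2 and 4 (purple) the lines are flatter.

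The other PRL probes showed the same division. Probe A_72_P651239 had pregnant levels of 16.15, 17.73, 16.07 and 17.41 on arrays 1 to 4, against cyclic levels of 18.11, 17.20, 18.28 and 17.45. Probe A_72_P594739 ran between 16.29 and 17.49 in pregnant and between 16.76 and 17.90 in cyclic gilts. Probe A_72_P500876 ran between 15.33 and 17.24 in pregnant and between 16.85 and 17.74 in cyclic gilts. For each of these probes the 2 lowest levels were again those of the pregnant gilts of arrays 1 and 3, and the groups overlapped. No PRL or POU1F1 probe had all pregnant gilts on 1 side of all cyclic gilts, which held for 0.910% of tested probes with the pregnant gilts lower and 2.08% with the pregnant gilts higher.

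Averaged over the 4 PRL probes, the log2 ratio of pregnant over cyclic was -1.75, 0.32, -1.84 and -0.26 on arrays 1 to 4. Within an array the probes had an SD of 0.18 to 0.46, while their mean had an SD of 1.08 over the arrays. The spread thus lay between arrays more than between probes.

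**Figure D2:**
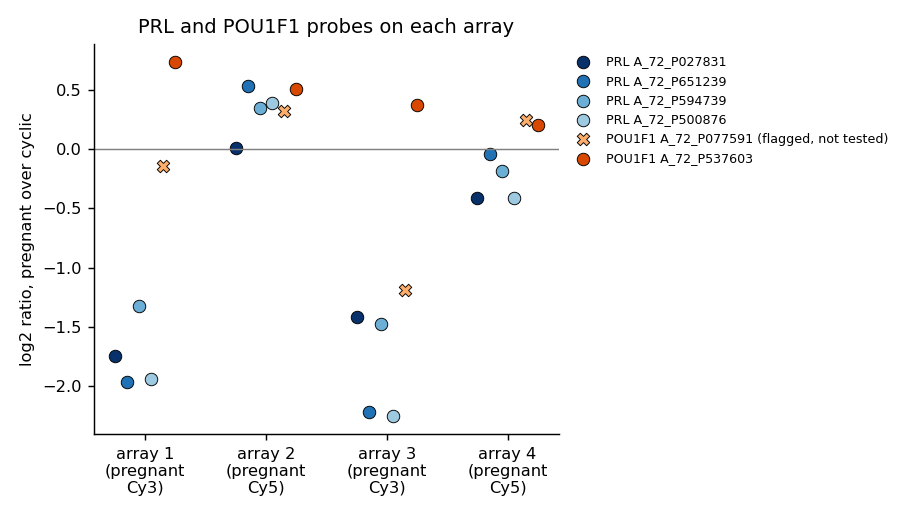
Log2 ratio of pregnant over cyclic (vertical axis) for each of the 4 PRL probes (blue) and 2 POU1F1 probes (orange) on each array, with the dye of the pregnant RNA named under the array; crosses mark the POU1F1 probe whose spots carried a quality flag. The PRL points lie between -2.25 and -1.33 on arrays 1 and 3 and between -0.41 and 0.54 on arrays 2 and 4.

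In the fit across all tested probes, which takes out a dye effect for each probe, the log2 ratio was -0.89 ± 0.83 for A_72_P027831 (SD, n = 4 arrays), 1.86-fold lower in pregnant gilts. It was -0.92 ± 1.37 for A_72_P651239, -0.66 ± 0.89 for A_72_P594739 and -1.06 ± 1.26 for A_72_P500876. None passed the threshold, a limma p adjusted by Benjamini-Hochberg under 0.05 (adjusted p = 0.235 for each PRL probe). Of 21627 tested probes limma called 0 (0%), and 3904 (18.1%) had an unadjusted p under 0.05. By that unadjusted p, 4 of 4 PRL probes were lower, beside 7.62% of all tested probes. These probes share 1 transcript and the same arrays, so they are not independent tests. Of all tested probes, 0.342% had a lower fitted ratio than A_72_P027831. None of the PRL probes was negative on every array, a pattern held by 11.3% of tested probes with a value on the 4 arrays.

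The error of the PRL ratio depended on how its division by array was treated. With a dye effect in the model, limma gave A_72_P027831 a standard error of 0.114 and a 95% interval of -1.19 to -0.59. Without it the standard error was 0.304 and the interval was -1.64 to -0.15 (limma adjusted p = 0.332). For the other PRL probes the interval without a dye effect crossed 0, at -2.13 to 0.29 for A_72_P651239, -1.46 to 0.14 for A_72_P594739 and -2.17 to 0.05 for A_72_P500876. By the unadjusted limma p, 1 of 4 PRL probes was thus lower without a dye effect, against 4 of 4 with it. The model without it called 2 tested probes (0.00925%), PRL not among them, and 14.3% had an unadjusted p under 0.05. An exact two-sided sign-flip test over the 4 arrays gave p = 0.25 for A_72_P027831, where the smallest p it can give is 0.125.

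The ratios on arrays 1 and 3 lay below those on arrays 2 and 4 for each PRL probe, a division seen in 23.6% of tested probes with a value on the 4 arrays, and the reverse was seen in 21.7%. The dye effect fitted to A_72_P027831 was 0.69 (log2, Cy5 over Cy3), and 99.3% of tested probes had a smaller one in size. The 2 dye orientations were run on different gilts, so a dye effect and a difference between gilts cannot be told apart.

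Within each dye, the pregnant gilts had less PRL signal than the cyclic gilts. For A_72_P027831 the Cy3 levels were 16.51 and 16.95 in pregnant against 17.79 and 17.998 in cyclic gilts, a difference of -1.16. The Cy5 levels were 17.80 and 17.59 in pregnant against 18.26 and 18.37 in cyclic gilts, a difference of -0.62. Neither dye showed an overlap. The same held for the other PRL probes, with differences of -1.61 to -0.85 in Cy3 and -0.63 to -0.47 in Cy5. Of tested probes with a value on the 4 arrays, 1.93% were lower in pregnant gilts without overlap in both dyes. This comparison was chosen after the values were seen and uses the same 8 levels as the fitted ratio.

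The PRL spots were bright. In Cy5 they reached 22.1% to 85.6% of the scanner's saturation value, and in Cy3 3.05% to 16.5%. Every PRL spot carried a flag of the scan software on its Cy5 local background, and none carried a flag on the spot itself. The software's own error of a PRL log2 ratio was 0.204 to 0.276. Its ratios were made from its own processed signals, without the loess step used here. On array 1 that processing took A_72_P027831 from a median of 49730.5 to 201975 in Cy3 and from 666706 to 548706 in Cy5. For this probe the software's ratios were -1.44, -0.22, -1.14 and -0.71 on arrays 1 to 4, lower in the pregnant gilt on each array. For the other PRL probes the software's ratio on array 2 was positive, at 0.26 for A_72_P651239, 0.13 for A_72_P594739 and 0.16 for A_72_P500876. The part of the bright signal in the PRL ratio was not tested.

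POU1F1 was measured by 2 probes that did not give the same picture. Probe A_72_P537603, the one that could be tested, had log2 levels of 9.39, 9.22, 8.91 and 9.49 in the pregnant gilts of arrays 1 to 4, against 8.65, 8.71, 8.54 and 9.28 in the cyclic gilts. On each array the pregnant gilt had the higher level, though the groups overlapped, since the cyclic gilt of array 4 lay above 2 of the pregnant gilts. The ratios were 0.74, 0.51, 0.37 and 0.21, with a fitted value of 0.46 ± 0.23 (SD, n = 4), 1.37-fold higher in pregnant gilts. It did not pass the threshold (limma adjusted p = 0.235), and its 95% interval was 0.18 to 0.74. The unadjusted limma p was 0.00866, beside 10.4% of tested probes higher at an unadjusted p under 0.05. Of tested probes with a value on the 4 arrays, 14.6% were positive on every array. The exact sign-flip test gave p = 0.125, the smallest it can give.

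Its dye effect was small, at -0.10. Within Cy5 the pregnant gilts lay above the cyclic gilts without overlap, by 0.76, while within Cy3 the groups overlapped and differed by 0.16. As for PRL, the pregnant and cyclic levels of a dye come from different arrays. Of tested probes with a value on the 4 arrays, 3.84% were higher in pregnant gilts without overlap in both dyes.

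The second POU1F1 probe, A_72_P077591, was the brighter, but each of its spots was flagged in Cy5 as uneven, so it was left out of the fit. A flag on every array befell 545 probes, 2.28% of those that met the signal filter. With the flag set aside, its levels were 11.14, 11.54, 10.31 and 11.81 in pregnant gilts, against 11.28, 11.22, 11.49 and 11.56 in cyclic gilts. Its ratios were -0.14, 0.32, -1.19 and 0.25, negative on the arrays with pregnant RNA in Cy3 and positive on the others, with a mean of -0.19 ± 0.69 (SD, n = 4; exact sign-flip p = 0.875). The higher POU1F1 level in pregnant gilts therefore rests on the unflagged probe. With flagged spots kept, the brighter probe stood for the gene and the fitted ratio was -0.19 (limma adjusted p = 0.606).

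PRL and POU1F1 were set against each other array by array, by the brightest tested probe of each gene. The PRL ratio minus the POU1F1 ratio was -2.49, -0.50, -1.79 and -0.62 on arrays 1 to 4, with a mean of -1.35 ± 0.96 (SD, n = 4). It was negative on 4 of 4 arrays, and the exact sign-flip test gave p = 0.125, the smallest possible with 4 arrays. The mean was -1.22 ± 1.66 after median centring and -0.79 ± 1.59 with pregnant RNA read as Cy3 on every array, and the exact sign-flip test then gave p = 0.5 in each case. Under the Cy3 reading group and dye coincide on every array, so that value cannot be told apart from a dye difference. With the flagged POU1F1 probe in place of the unflagged one, the mean difference was -0.70 ± 0.63 (SD, n = 4). Across the 8 gilts the levels of the 2 genes had a Pearson r of -0.47, a description only, since the gilts of an array share its spots and its normalisation.

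The other measured targets of POU1F1 had fitted ratios near 0 with a wide spread. GH1, the somatotroph hormone, had log2 ratios of -0.94, 1.14, -2.39 and 2.16 on arrays 1 to 4, fitted at -0.01 ± 2.05 (SD, n = 4). GHRHR, the receptor of growth hormone-releasing hormone, had -0.32, 0.29, -0.84 and 0.55, fitted at -0.08 ± 0.63. Both lay lower on arrays 1 and 3 than on arrays 2 and 4, as PRL did, with dye effects of 1.66 and 0.50. TSHB, the thyrotropin beta subunit, had -0.15, -4.85, 6.30 and -1.36, fitted at -0.02 ± 4.66. Of the 5 listed targets, which include PRL and POU1F1, 4 had a negative ratio, and the list median of -0.02 became 0.12 after median centring of the arrays.

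The remaining hormone transcripts mark other endocrine cells. CGA, the alpha subunit shared by gonadotrophs and thyrotrophs, had ratios of -1.19, 0.11, -1.04 and 1.06 on arrays 1 to 4. LHB, of luteinizing hormone, had -0.89, -0.03, -0.15 and 0.28. POMC, the corticotroph precursor, had -0.67, -0.01, 0.78 and 0.55 by its brightest probe, fitted at 0.16, while 2 of its 3 probes had a negative fitted ratio. FSHB, of follicle-stimulating hormone, had -3.36, -1.99 and -0.32 on arrays 2, 3 and 4, with no usable value on array 1. On array 1 every hormone gene with a value was negative. On array 3 PRL, GH1, CGA, LHB and FSHB were negative, and TSHB and POMC were positive. The part of these cells in the PRL ratio was not tested.

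**Figure D3:**
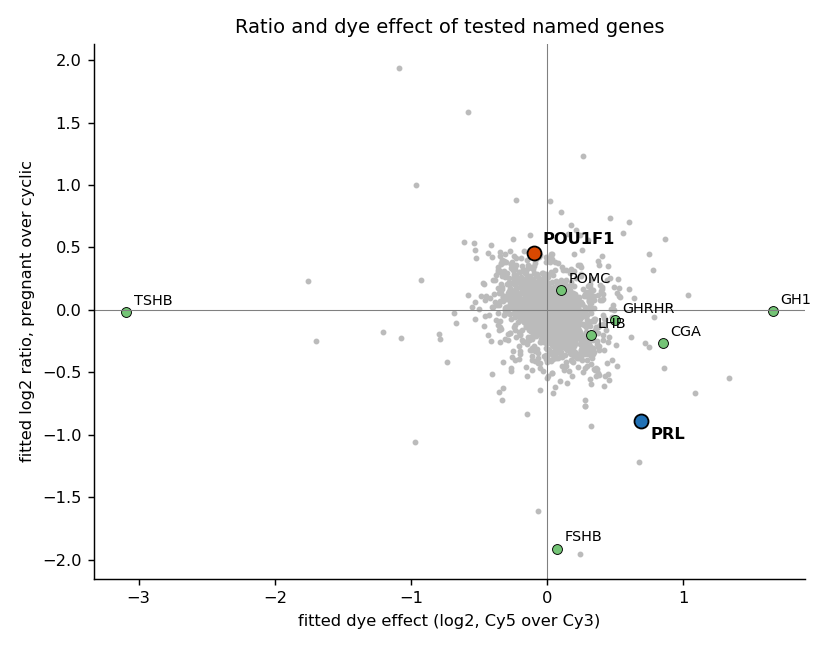
Fitted log2 ratio of pregnant over cyclic (vertical axis) against the fitted dye effect (horizontal axis, log2 of Cy5 over Cy3) for the 1727 tested named genes (grey), with hormone genes and GHRHR in green. PRL combines a ratio of -0.89 with a dye effect of 0.69, GH1 has a dye effect of 1.66 with a ratio of -0.01, and POU1F1 lies at 0.46 with a dye effect of -0.10.

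Other cells of the gland were described by marker lists, whose unlogged levels were summed over the genes with a value on the 4 arrays. Such a sum follows the brightest gene of its list. The somatotroph sum followed GH1, the neural and intermediate lobe sum OXT, and the thyrotroph sum CGA, which gonadotrophs share. TSHB itself ran between 8.23 and 16.11 in pregnant and between 9.39 and 13.08 in cyclic gilts. The folliculostellate and stem cell sum and the neural and intermediate lobe sum each held only 2 genes. The somatotroph markers (3 of 6 measured genes negative) summed to log2 levels of 15.97 to 18.22 in pregnant and 16.15 to 18.31 in cyclic gilts. Thyrotroph markers (2 of 3 negative) summed to 16.49 to 17.57 in pregnant and 16.55 to 17.68 in cyclic gilts, gonadotroph markers (3 of 5) to 17.21 to 18.02 and 17.22 to 18.35, and corticotroph markers (2 of 3) to 17.20 to 17.83 and 17.01 to 17.86, pregnant before cyclic. These ranges overlapped widely. The gonadotroph sum held only 4 genes and followed CGA and LHB, since FSHB had no usable value on array 1. FSHB had a fitted ratio of -1.91 ± 1.52 (SD, n = 3). The folliculostellate and stem cell markers (3 of 4 negative) summed to 10.31 to 11.60 in pregnant and 10.47 to 11.84 in cyclic gilts, immune and blood markers (3 of 5) to 10.28 to 10.75 and 10.13 to 10.69, and neural and intermediate lobe markers (2 of 3) to 12.18 to 13.28 and 12.37 to 13.11.

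Stromal and endothelial markers were negative for 5 of 7 measured genes, with a list median of -0.30 that was negative under each scaling tried. At an unadjusted limma p under 0.05, 4 were lower (ENG, SPARC, ACTA2 and FBN1), beside 145 of the 1727 tested named genes. SPARC had values on 3 arrays, and the ACTA2 probe lay in the dim patch of array 4. The 3 FBN1 probes had fitted ratios between -0.30 and 0.11. The 2 positive genes were DCN at 0.22 ± 0.54 and PECAM1 at 0.20 ± 0.31 (SD, n = 4 each). The 3 DCN probes were all positive, while 2 of 3 PECAM1 probes were negative. The stromal and endothelial sum, which left out SPARC, was 12.58 to 13.23 in pregnant and 12.80 to 13.02 in cyclic gilts. Its ratio was 0.11, -0.22, -0.23 and 0.35 on arrays 1 to 4. The 5 measured genes of cycling cells were all negative, as were 972 of the 1727 tested named genes. At an unadjusted limma p under 0.05, 0 of the 5 were lower. Their median of -0.72 was also negative under each scaling tried. They summed to 9.31 to 9.76 in pregnant and 9.57 to 10.90 in cyclic gilts. The ratio of that sum was -0.06, -0.70, -1.49 and -0.04 on arrays 1 to 4. Of the arrays on which PRL was low in the pregnant gilt, array 3 thus had a low cycling-cell sum and array 1 did not. No marker gene was called over all probes, and the part of these cells in the PRL and POU1F1 ratios was not tested.

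Receptors through which lactotrophs are controlled mostly had positive ratios, many of them close to 0. Of 42 listed genes 17 were measured, 14 with a positive and 3 with a negative ratio. Of the 1727 tested named genes, 755 were positive and 972 negative. The list median was 0.05, beside -0.02 over those named genes. At an unadjusted limma p under 0.05, 4 receptors were higher (SSTR5, PGR, TRHR and EGFR) and 1 lower (CALCR). Of the 1727 tested named genes, 94 were higher and 145 lower by that p. Of the receptors, 0 passed the adjusted threshold. TRHR, the receptor of thyrotropin-releasing hormone, had ratios of 0.47, -0.08, 0.54 and 0.27 on arrays 1 to 4, fitted at 0.30 ± 0.28 (SD, n = 4). PGR, the progesterone receptor, had 0.66, 0.61, 0.15 and 0.33, fitted at 0.44 ± 0.24. SSTR5, a somatostatin receptor that inhibits hormone release, had 1.44, 1.15, 0.50 and 1.85, fitted at 1.23 ± 0.57. PGR and SSTR5 were higher in the pregnant gilt on each array. The estrogen receptor ESR1 had 0.13 ± 0.34, with its 3 probes between -0.02 and 0.13, VIPR1, a receptor of vasoactive intestinal peptide, had 0.13 ± 0.11, and CALCR, the calcitonin receptor, had -0.37 ± 0.37. DRD2 had no probe that could be named here.

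Transcription factors that act before or beside POU1F1 had no shared direction. Of 31 listed genes 10 were measured, 7 positive and 3 negative, with 0 at an unadjusted limma p under 0.05. The list median was 0.02, and it was 0.17 after median centring, -0.0044 after scaling between arrays and -0.02 with the scan software's processed signals. The median of all tested probes was 0.01, and 0.07 after median centring. ETS1, a partner of POU1F1 at the prolactin promoter in rat cells, had 0.22 ± 0.44 (SD, n = 4). The thyroid hormone receptor THRA had -0.23 ± 0.38, and the retinoid receptor RXRG 0.16 ± 0.26. PITX1 and LHX3, early pituitary factors, had no probe that could be named here.

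Among genes that carry signals to the prolactin promoter, 8 of 45 listed were measured, 3 positive and 5 negative. Their median of -0.02 became 0.09 after median centring. MAP2K1, the kinase that activates the ERK kinases, had -0.91, -0.38, -0.99 and 0.18 on arrays 1 to 4, fitted at -0.53 ± 0.54 (SD, n = 4), and its 4 probes had fitted ratios of -0.67 to -0.09. GNAI2, an inhibitory G protein subunit, had -0.21 ± 0.26, and PRKAR1A, a regulatory subunit of protein kinase A, had -0.28 ± 0.20, each on 3 arrays.

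Of 9 measured ligands and local factors among 27 listed, 4 were positive and 5 negative. They included the cytokine IL6 at -0.27 ± 0.54, TGFB1 at -0.17 ± 0.15, which restrains lactotrophs in rodents, and the inhibin and activin subunit INHBA at 0.13 ± 0.19 (SD, n = 4 each). The 3 measured genes of ion channels and exocytosis, of 17 listed, were negative, with a median of -0.32 that was negative under each scaling tried. RAB3A, a GTPase of secretory granules, had -0.68, -0.05, -0.79 and 0.26 on arrays 1 to 4, fitted at -0.32 ± 0.50. RAB27A, another granule GTPase, had -0.35 ± 0.38, and the potassium channel KCNMA1 had -0.15 ± 0.15. MAP2K1 and RAB3A lay lower on arrays 1 and 3 than on arrays 2 and 4, as PRL did.

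Genes of the prolactin receptor pathway were divided. Of 38 listed genes 17 were measured, 9 positive and 8 negative, with a median of 0.01 that turned to -0.01 after scaling between arrays. JAK2, the kinase bound to the receptor, had 0.03 ± 0.23 (SD, n = 4), with 1 of its 2 probes negative. STAT5A and STAT5B, which carry the signal to the nucleus, had -0.17 ± 0.19 and -0.16 ± 0.20. FYN, a Src-family kinase, had -0.38 ± 0.36, and the survival kinase AKT1 had -0.37 ± 0.37. PRLR, the receptor, was on the array but did not pass the filters.

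Of 12 listed enzymes and inhibitors that bear on the cleavage of prolactin 5 were measured, 2 positive and 3 negative. The proteases MMP2 and MMP9 had -0.24 ± 0.61 on 3 arrays and 0.06 ± 0.16 on 4 arrays. The inhibitor TIMP1 had 0.16 ± 0.37 on 3 arrays by its brightest probe, while 2 of its 3 probes were negative. No gene of these lists passed the adjusted threshold.

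**Figure D4:**
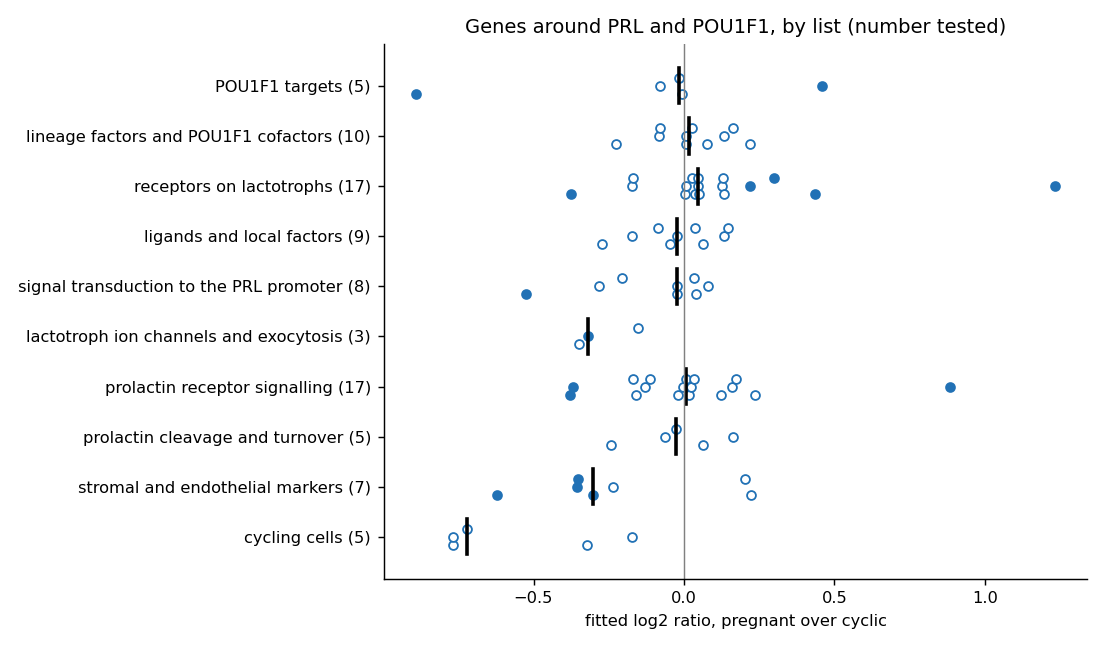
Fitted log2 ratio of pregnant over cyclic (horizontal axis) of each measured gene in lists around PRL and POU1F1 (listed down the page, with the number tested); filled points have an unadjusted limma p under 0.05 and black bars are list medians. Receptors run between -0.37 and 1.23 with 14 of 17 positive and a median of 0.05. The 5 cycling-cell genes are negative, 0 of them at that unadjusted p.

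The genes whose levels were most like those of PRL across the 8 gilts were CCND3 (Pearson r = 0.92), a D-type cyclin, FOS (0.89), an immediate early factor, UBE2E2 (0.88), a ubiquitin-conjugating enzyme, ARF1 (0.88), a GTPase of vesicle traffic, and SIRT5 (0.88), a mitochondrial deacylase. They were the 5 highest of 1472 genes compared, whose median r with PRL was 0.11. FOS had ratios of -1.76, -0.60, -2.02 and -0.48 on arrays 1 to 4, fitted at -1.22 ± 0.79 (SD, n = 4), and ARF1 had -0.99, -0.27, -1.07 and -0.11, fitted at -0.61 ± 0.49. All 5 genes shared PRL's lower ratios on arrays 1 and 3, a division that choosing genes by their likeness to PRL over the same levels favours, and that 23.6% of tested probes with a value on the 4 arrays showed.

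The genes most like POU1F1, by its unflagged probe only, were RAB33A (0.94), a Golgi GTPase, NAXE (0.94), an epimerase that repairs NAD(P)HX, CHORDC1 (0.93), a co-chaperone, PRDX6 (0.93), a peroxiredoxin, and KCNS3 (0.93), a potassium channel subunit. RAB33A was dim and varied little, with log2 levels of 6.37 to 6.73 over the 8 gilts. The median r with POU1F1 was 0.33. NAXE had ratios of 0.40, 0.49, 0.42 and 0.47 on arrays 1 to 4, fitted at 0.44 ± 0.04 (SD, n = 4). PRDX6 had 0.32 ± 0.44 by its brightest probe, while 4 of its 5 probes were negative. These correlations describe 8 levels on 4 arrays that share spots, dyes and normalisation.

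**Figure D5:**
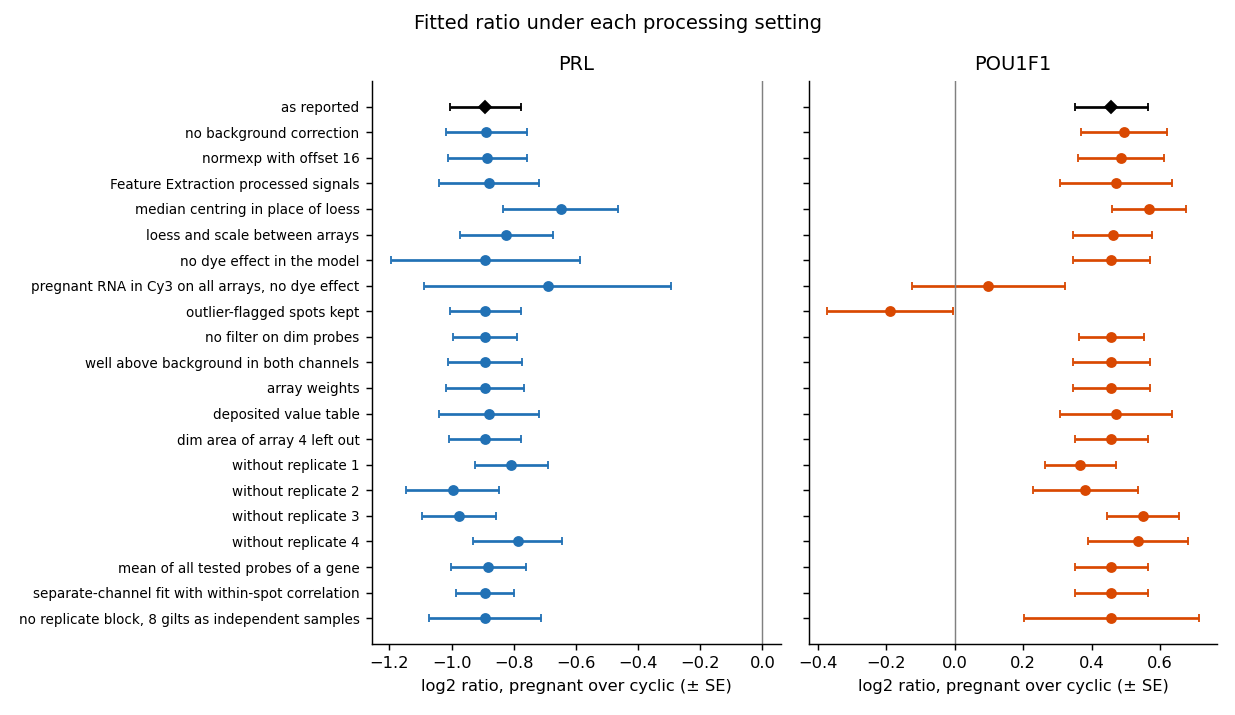
Fitted log2 ratio of PRL (left) and POU1F1 (right) with its standard error (horizontal bars) under each processing setting; the black diamond is the reported value. PRL lay between -0.997 and -0.65 under the settings shown, and POU1F1 was negative, at -0.19, only when flagged spots were kept.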

How the data were processed

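Per the file headers, the deposited scanner files hold spot and background intensity in Cy3 and Cy5, read by Agilent Feature Extraction 10.7.3.1 on array design 026440. They also hold a log10 ratio (Cy5 over Cy3), made by the authors' scan software. The value table that the authors deposited holds log2 ratios. Its columns matched the processed signals turned by the sample labels' dyes (slope 1.00 and r = 1.00 on each array) and had medians of 0.07, -0.08, -0.18 and -0.17, so it was not centred on 0. The labelling protocol can be read as pregnant RNA always in Cy3. The sample labels, which alternate the dyes, were used. Per the labels, 825 ng of cRNA per dye was hybridised. In the main fit, p-values measure the spread between arrays that is left after each probe's dye effect is taken out.

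Median signals were corrected by normexp (offset 50) and normalised by loess with control spots at weight 0. Spots flagged as uneven or outlying were left out. Probes that met the signal filter (23913) were tested if at least 3 arrays remained (19880 on 4 arrays and 1747 on 3), with limma 3.58.1 in R 4.3.3, a dye effect per probe and Benjamini-Hochberg adjustment over all tested probes. Values after ± are SD over arrays. Levels per gilt were read after Aquantile normalisation. The brightest tested probe represents a gene. The fit was tested on simulated data.

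RefSeq accessions named 5502 probes. The members, lists and tests were chosen with earlier results of these data known. The rule for other genes took set hormones, receptors and factors, up to 3 genes of smallest p per list, and the 5 genes most like each member. EGFR, GHSR, EDNRA, EDNRB, OPRM1, FBN1, DCN and PECAM1 fell outside it and were named after their values were seen. Background correction, normalisation, filters, dye model and each array left out were tried as alternatives. The values of some measured genes of the lists are not reported here.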

Additional observations from a re-analysis of the deposited data

Results flagged for a closer look

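By Dixon's ratio, 2 of 72 groups of 4 values had an extreme standing apart, and chance alone gives about 1 in 20. STAT5B had a log2 ratio of 0.14 on array 3, against -0.29, -0.25 and -0.24 on arrays 1, 2 and 4. ETS1 had 0.87 on array 3, against -0.00074, -0.07 and 0.08 on arrays 1, 2 and 4.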

How the results depend on the processing

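The PRL log2 ratio was negative under each of 20 alternatives and the PRL minus POU1F1 log2 ratio under each of 14. PRL passed the threshold in the separate-channel fit (-0.89, limma adjusted p = 0.0150), which called 1021 probes, and without array 1 (-0.81, limma adjusted p = 0.0182), and its adjusted p reached 0.882 at most. With each array left out in turn, PRL lay between -0.997 and -0.79, POU1F1 between 0.37 and 0.55, their difference between -1.63 and -0.97, and the number of probes called between 0 and 3381, the highest without array 1. Without array 3, 4 probes were called. The count was 1 with no background correction, with a normexp offset of 16 and with array weights, and 2 without a dye effect. POU1F1 turned to -0.19 with flagged spots kept, since the flagged probe is the brighter. With pregnant RNA read as Cy3 on every array, PRL had -0.69 and POU1F1 0.10. Group and dye then coincide on every array, so these are the fitted dye effects with the sign turned. This reading is among the alternatives counted above but cannot part a group ratio from a dye effect. With no replicate block (the gilts of an array not paired), limma gave an adjusted p of 0.882 for PRL (-0.89). Leaving out an array leaves 1 array of its dye orientation, assumed to vary like the others. Of 1261 values of 64 other genes under the alternatives, 45 moved by over 1 SD and 65 changed sign. Other causes were not tested.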
